A study of Mus musculus with 54 samples.

Results

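Undifferentiated SCR ESCs were compared with undifferentiated WT ESCs, 3 arrays of each at day 0, which are 6 of the 54 arrays of the series. The members are the arrays whose titles give these lines and this day. WT ESCs were murine CGR8 embryonic stem cells (ESCs), labelled as male cells of strain 129, and carried no plasmid. SCR ESCs were the same line after lipofection with a retroviral-type plasmid that carries a non-targeting (scrambled) short hairpin RNA, a GFP gene and a puromycin resistance gene, and were kept as a polyclonal population that had survived puromycin. The other transfected line, KD ESCs, was made the same way with a hairpin against Mageb16 and is given beside both. The study used SCR ESCs as the control of the knockdown, and followed all 3 lines to day 22 as embryoid bodies (EBs). WT ESCs were neither transfected nor selected. Effects of the plasmid, of the hairpin, of puromycin and of the outgrowth of 1 cell population therefore cannot be told apart here. The labels number the chips of a group and do not say whether they come from separate cultures, so p values measure the spread between arrays of a group, which may be technical and was estimated over all groups of the series.

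ESCs are held in self-renewal by a network of transcription factors around Oct4 (Pou5f1), Nanog and Sox2, and in culture a minority of the cells enter neighbouring states such as primitive endoderm, the extraembryonic layer that lays down basement membrane. A hairpin RNA is cut by the microRNA machinery of the cell and loaded onto Argonaute proteins, and a scrambled hairpin is designed to match no transcript. Lines grown out after selection can also differ in chromosome number, in imprints and in DNA methylation, all of which are known to vary between ESC cultures.

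Values are RMA log2 signals, on which 1 unit is a 2-fold difference. A probe set or gene passed the threshold at a false discovery rate (FDR, limma p adjusted over the 30939 probe sets with deposited values) under 0.05 with at least a 2-fold difference. Array medians of the 6 arrays were 5.95 to 6.04, and Pearson correlations were 0.9895 to 0.9952 within a group and 0.9852 to 0.9922 between the groups. Mageb16, the target of the knockdown and an X-linked gene of the melanoma antigen family, read 10.09, 10.09 and 10.03 in SCR arrays and 9.99, 9.93 and 9.94 in WT arrays. In KD arrays it read 7.11, 7.0 and 7.06. The difference between SCR and WT arrays did not pass (0.12, SE 0.17, FDR = 0.764), while the KD arrays were lower than both.

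The label as ESCs held in both lines. Of 11 ESC markers none passed, and their differences ranged from -0.25 (Klf4) to 0.26 (Esrrb). Pou5f1 read 12.07, 12.09 and 12.07 in SCR arrays and 11.93, 12.19 and 12.06 in WT arrays. Nanog read 11.79, 11.44 and 11.58 against 11.82, 11.35 and 11.53, and Sox2 read 11.71, 11.71 and 11.88 against 11.87, 11.66 and 11.76. The arrays of these genes overlapped between the lines, with differences of 0.02 for Pou5f1, 0.04 for Nanog and 0.00 for Sox2. Of 15 core pluripotency genes, of 13 naive factors and of 10 primed epiblast genes none passed in limma (1, 2 and 2 of them had an unadjusted p under 0.05), and the list medians were 0.02, 0.02 and -0.22 beside -0.01 over all genes. Lin28a, which blocks maturation of let-7 microRNAs, was the only core gene with an FDR under 0.05, at 9.63, 9.67 and 9.79 in SCR arrays against 8.87, 9.36 and 9.19 in WT arrays (0.56, SE 0.11, FDR = 0.000407), below the 2-fold minimum.

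In all, 194 of 30939 probe sets passed (0.627%), 35 higher (0.113%) and 159 lower (0.514%) in SCR ESCs. Read by 1 probe set a gene, 127 of 14104 genes passed (0.9%). The count was uneven between the directions, with 17 genes higher in SCR ESCs (0.121%) and 110 lower (0.78%). At least a 4-fold difference was seen for 2 of the higher and 12 of the lower genes. The arrays of the lines overlapped in 3 of the 17 higher and 4 of the 110 lower genes. Over all genes 9.17% had every SCR array above and 13.7% every SCR array below the WT arrays, and nothing is read from the called genes here, since the same arrays chose them. In 34 of the 110 lower genes the SCR mean lay under the lower quartile of the SCR arrays (4.26), so that the size of those differences is not exact. With an FDR under 0.05 and no minimum fold, 596 genes were higher (4.23%) and 1269 lower (9%).

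**Figure D1:**
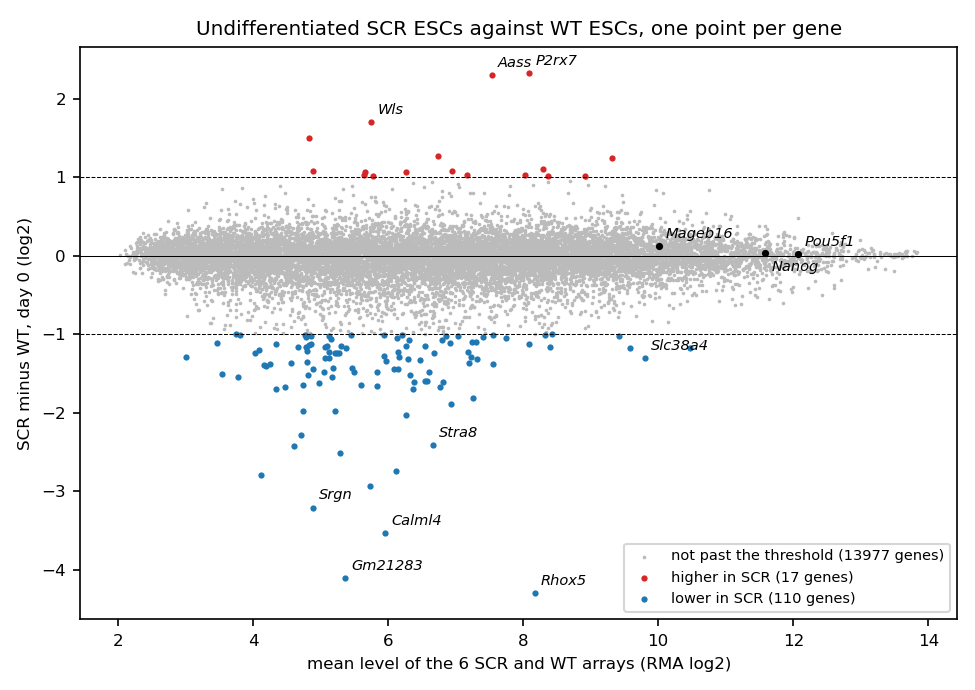
Difference of undifferentiated SCR and WT ESCs (vertical axis, SCR minus WT, log2) against the mean level of the 6 arrays (horizontal axis, RMA log2), one point per gene, with dashed lines at the 2-fold minimum. The 110 lower genes (blue) reach down to Rhox5 at -4.30, the 17 higher genes (red) up to P2rx7 at 2.33, and Pou5f1, Nanog and Mageb16 lie near 0.

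Among the genes higher in SCR ESCs, P2rx7, an ATP-gated cation channel, read 9.13, 9.30 and 9.32 in SCR arrays and 6.70, 7.08 and 6.99 in WT arrays. The SCR arrays were 5.02-fold higher (2.33 log2, SE 0.15, FDR = 4.03e-15). KD arrays were lower than both at 5.19, 5.44 and 5.32, so the highest and the lowest level belonged to the 2 transfected lines. Of the 3 probe sets of P2rx7, 2 passed, and the remaining one was at 0.76. Aass, the first enzyme of lysine breakdown, read 8.34, 9.07 and 8.64 against 6.03, 6.54 and 6.58 (2.30, SE 0.23, FDR = 1.62e-09). For Aass the KD arrays, at 7.74, 8.26 and 8.12, also lay above all WT arrays.

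Wls, the carrier that brings Wnt proteins to the cell surface, read 6.86, 6.30 and 6.64 in SCR arrays and 5.42, 4.27 and 5.0 in WT arrays (1.70, SE 0.19, FDR = 1.38e-08), and KD arrays were at 4.90 to 4.97. Pkhd1, whose product fibrocystin sits on the primary cilium, read 5.62, 5.74 and 5.39 against 4.21, 4.06 and 3.97 (1.5, SE 0.19, FDR = 1.12e-07). The WT mean of Pkhd1 was under the lower quartile of its arrays. Tmem144, a transmembrane protein, followed at 1.27 (0.92 when its probe sets were averaged) and Spink1, a secreted trypsin inhibitor, at 1.25. Tgfbi, a matrix protein induced by TGF-beta, was at 1.10, Scara5, a scavenger receptor that takes up ferritin, at 1.07, and Eya1, a transcriptional coactivator of kidney and ear development, also at 1.07 (0.71 when both probe sets were averaged). Mgst1, a membrane-bound glutathione transferase, was at 1.07, the lipoprotein lipase Lpl at 1.03 (0.95 averaged) and the surface protein Susd2 at 1.03. These 12 genes were taken among those with arrays apart, which left out Gpr83, an orphan receptor gene (1.08, arrays overlapping), and several sat on the 2-fold line. Without SCR array 1 the difference was 0.99 for Scara5, 0.99 for Mgst1 and 0.998 for Susd2, without WT array 1 it was 0.86 for Mgst1, 0.995 for Lpl and 0.96 for Susd2, and Susd2 was at 0.87 without SCR array 3 and at 0.84 without WT array 3. All of these values had an FDR under 0.05. Without the third array of every group Spink1 (FDR = 0.182), Tgfbi (FDR = 0.135) and Susd2 (0.685, FDR = 0.097) did not pass. In a fit of the 6 arrays alone Susd2 did not pass either (FDR = 0.105). Between arrays of the same number Susd2 differed by 1.21, 0.16 and 1.71.

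Rhox5, an X-linked homeobox gene of the reproductive tract and placenta, showed the largest measured difference of all genes. It read 6.19, 6.08 and 5.79 in SCR arrays and 10.34, 10.38 and 10.24 in WT arrays, so that SCR ESCs were 19.7-fold lower (-4.30, SE 0.15, FDR = 5.06e-24). KD arrays read 7.50, 7.99 and 7.77, between the others and overlapping neither. Gm21283, a predicted gene, read 3.25, 3.32 and 3.36 in SCR arrays against 6.76, 7.97 and 7.54 in WT arrays (-4.11, SE 0.19, FDR = 9.96e-20). The SCR mean of Gm21283 was under the lower quartile of its arrays, so its rank below Rhox5 is not certain. Its KD arrays, at 3.28, 3.37 and 3.16, covered the range of the SCR arrays. Calml4, a calmodulin-like gene, was different from both in this respect. It read 4.19, 3.95 and 4.43 in SCR arrays, 7.18, 8.17 and 7.83 in WT arrays (-3.54, SE 0.22, FDR = 9.92e-16) and 7.86, 7.70 and 7.82 in KD arrays, so that only SCR ESCs were low.

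Stra8, a retinoic acid-induced gene needed for entry into meiosis, read 5.65, 5.28 and 5.42 in SCR arrays and 8.36, 7.45 and 7.79 in WT arrays (-2.42, SE 0.21, FDR = 1.48e-11). Rec114, which takes part in making the DNA breaks of meiosis, read 5.42, 5.11 and 5.24 against 7.28, 7.17 and 7.41 (-2.03, SE 0.14, FDR = 2.09e-14). Both genes were chosen among those with arrays apart, and KD arrays were at 6.30 to 6.39 for Stra8 and at 4.35 to 4.52 for Rec114. Pnma5, an X-linked gene of the paraneoplastic antigen family, was at -2.75, and Gm364, a predicted X-linked gene, at -2.93. Mt4, a metallothionein of stratified epithelia, was at -2.52, and the predicted gene Gm20767 at -2.29. For the tetraspanin Tspan8 (-2.79) and for Crxos, a homeobox gene transcribed opposite to Crx (-2.42), the call rested on 1 probe set of 5 and of 2, and as the mean of all probe sets the difference was -0.79 for Tspan8 and -1.22 for Crxos. Srgn, the core protein of secretory granule proteoglycans, was at -3.21 and is described with the endoderm genes.

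**Figure D2:**
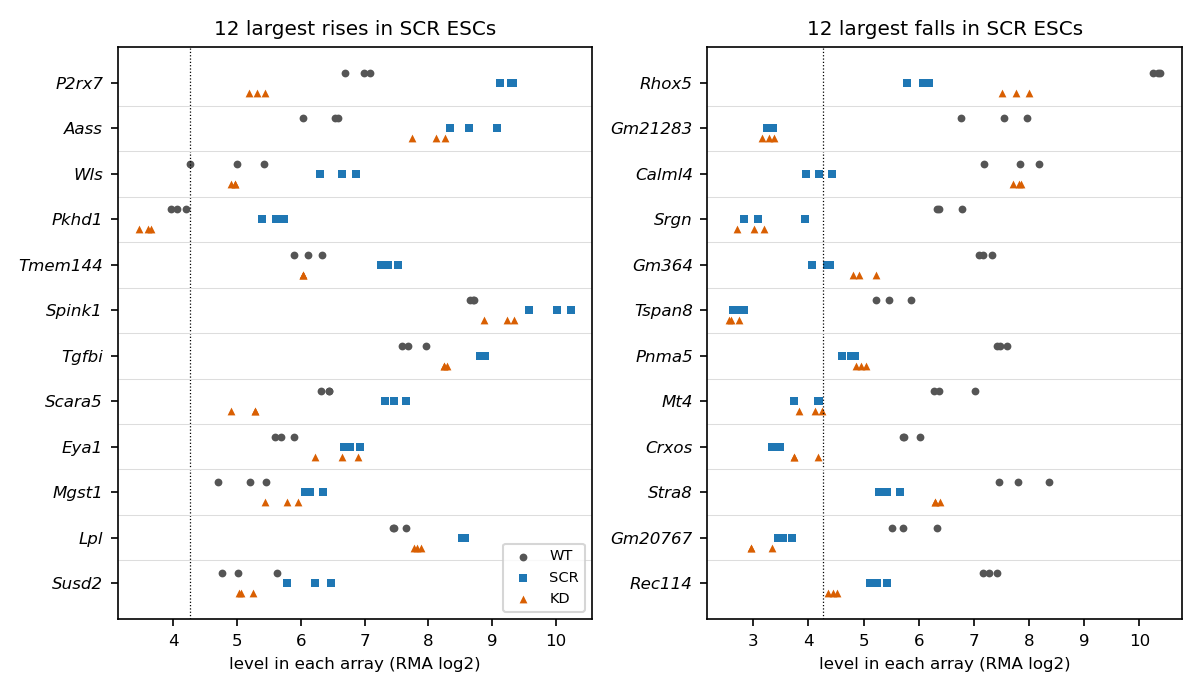
Level of the 12 genes with the largest rise (left) and the 12 with the largest fall (right), among called genes whose SCR and WT arrays do not overlap, in each day 0 array (horizontal axis, RMA log2), with 3 arrays each of WT (circles), SCR (squares) and KD ESCs (triangles) and a dotted line at the lower quartile of the SCR arrays, 4.26. The KD arrays lie beside the SCR arrays for Gm21283, beside the WT arrays for Calml4 and outside both for P2rx7.

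Promoters of these genes were read as the 250 bases before the start site in RefSeq's GRCm38.p6 annotation. Where a gene had several windows, the first one listed was counted. A CpG is a C followed by a G, the site at which mammalian DNA is methylated, and promoters poor in CpG are known to be methylated in many tissues. Of the 14104 genes 11299 had a window, with a median of 15 CpGs, and 34.3% held 10 or fewer. The 84 lower genes with a window had a median of 7 CpGs, and 61.9% held 10 or fewer. The 11 genes lower at least 4-fold with a window held 0 to 10, with a median of 5. The 10 higher genes with a window had a median of 9, and 60% of them held 10 or fewer. In the list of germ line genes described next the median was 17.5. These are counts over chosen genes, given with no test, and DNA methylation was not measured here. The 5 windows that follow are shown because they span this range among genes of meiosis and the germ line that were lower in SCR ESCs, each written 5′ to 3′ on the strand of the gene with every CpG in capitals.

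Rhox5 (chrX:37754358-37754607, plus strand): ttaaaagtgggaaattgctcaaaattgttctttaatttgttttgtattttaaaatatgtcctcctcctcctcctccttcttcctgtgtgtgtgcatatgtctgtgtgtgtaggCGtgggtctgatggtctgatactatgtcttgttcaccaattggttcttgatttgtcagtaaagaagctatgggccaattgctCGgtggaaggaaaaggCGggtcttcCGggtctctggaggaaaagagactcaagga

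Stra8 (chr6:34920698-34920947, plus strand): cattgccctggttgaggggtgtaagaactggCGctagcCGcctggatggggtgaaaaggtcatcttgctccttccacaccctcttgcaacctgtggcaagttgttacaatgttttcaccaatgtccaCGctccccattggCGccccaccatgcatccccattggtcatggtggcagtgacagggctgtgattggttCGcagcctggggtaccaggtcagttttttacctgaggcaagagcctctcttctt

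Rec114 (chr9:58741560-58741809, minus strand): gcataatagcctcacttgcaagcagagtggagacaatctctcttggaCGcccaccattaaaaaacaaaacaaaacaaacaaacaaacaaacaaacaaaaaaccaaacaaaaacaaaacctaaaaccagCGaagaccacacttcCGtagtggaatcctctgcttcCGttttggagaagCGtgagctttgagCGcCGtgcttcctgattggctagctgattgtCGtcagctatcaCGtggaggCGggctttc

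Mael (chr1:166238745-166238994, minus strand): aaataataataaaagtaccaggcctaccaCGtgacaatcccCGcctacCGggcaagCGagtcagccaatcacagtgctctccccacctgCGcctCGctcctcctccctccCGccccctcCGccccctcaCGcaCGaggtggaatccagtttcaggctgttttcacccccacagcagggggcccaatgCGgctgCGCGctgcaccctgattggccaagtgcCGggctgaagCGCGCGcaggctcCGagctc

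Dazl (chr17:50293621-50293870, minus strand): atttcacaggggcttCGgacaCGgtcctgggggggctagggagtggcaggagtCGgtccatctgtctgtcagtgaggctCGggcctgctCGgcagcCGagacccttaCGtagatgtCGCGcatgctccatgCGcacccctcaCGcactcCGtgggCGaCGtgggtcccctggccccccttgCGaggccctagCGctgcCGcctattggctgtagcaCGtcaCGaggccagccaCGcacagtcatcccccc

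Rhox5, with the largest measured difference, held 4 CpGs, Stra8 5 and Rec114 10, whereas Mael held 18 and Dazl 20, both above the median of all genes. The sequences were chosen to span this range, so their place on both sides of that median is not a result.

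Mael and Dazl were the 2 genes that passed of 15 measured germ line genes known to be kept silent by DNA methylation (0.78% of all genes were called lower), none was higher, and the list median was -0.56 beside -0.01 over all genes. Mael, a factor of piRNA-guided transposon silencing, read 6.62, 6.54 and 6.6 in SCR arrays and 7.84, 7.89 and 7.92 in WT arrays (-1.30, SE 0.24, FDR = 0.00017). Dazl, an RNA-binding protein of germ cells, read 6.47, 5.55 and 5.90 against 7.76, 6.47 and 7.14 (-1.15, SE 0.25, FDR = 0.00145). The Mael arrays were apart, whereas the highest SCR array of Dazl equalled the lowest WT array. Between arrays of the same number Dazl differed by -1.29, -0.92 and -1.24. Of the 15 genes 8 were lower with an FDR under 0.05 alone (9% of all genes were), among them Taf7l, a germ cell subunit of the TFIID complex (-0.92), and Piwil2, a piRNA-binding protein (-0.64). In KD ESCs, compared with the same WT arrays, the list median was -0.77. Without the third array of every group neither Mael (-1.285, FDR = 0.0946) nor Dazl (-1.105, FDR = 0.194) passed. Dazl was at -0.94 without SCR array 2 and at -0.83 without WT array 1. It also did not pass in a fit of the 6 arrays alone (FDR = 0.17) or of the 9 day 0 arrays, KD included (FDR = 0.121).

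Primitive and visceral endoderm genes were the list with the largest count, 7 of 19 lower and none higher, where 0.78% of all genes were called lower and 0.121% higher, with a median of -0.52. Srgn, named above, read 3.93, 2.83 and 3.08 in SCR arrays and 6.79, 6.33 and 6.36 in WT arrays (-3.21, SE 0.25, FDR = 1.53e-12). Col4a1, the collagen IV chain of basement membranes, read 6.04, 6.0 and 5.99 against 7.66, 7.54 and 7.66 (-1.61, SE 0.12, FDR = 1.22e-13), and its partner chain Col4a2 was at -1.30. Both collagen genes had SCR arrays far below all WT arrays. Amn, the membrane anchor of the cubilin receptor of visceral endoderm, was at -1.43, and Gata6, the transcription factor that directs primitive endoderm, read 4.66, 4.57 and 4.35 against 5.83, 5.47 and 5.74 (-1.15, SE 0.15, FDR = 5.23e-07). Cubn, that receptor itself, was at -1.13 (SE 0.36, FDR = 0.0339). Dab2, its endocytic adaptor on chromosome 15, was at -1.04 (SE 0.18, FDR = 6.4e-05). The SCR means of Srgn, Cubn and Dab2 lay under the lower quartile of the SCR arrays, so that their sizes are not exact. Averaged over their probe sets Gata6 (-0.67, 2 probe sets), Cubn (-0.86, 2) and Dab2 (-0.18, 4) were short of 2-fold. Sox17 (-0.99), a factor of endoderm, lay just short of the threshold, and the regulators Gata4 (-0.13) and Foxa2 (-0.01) did not pass.

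The mean level of the 19 endoderm genes was 4.81 to 5.03 in the SCR arrays, 5.67 to 5.77 in the WT arrays and 4.81 to 4.95 in the KD arrays, and 3 of the genes were under the lower quartile in both lines. In bulk RNA fewer cells of a type and less RNA per cell cannot be told apart. The count was 5 without the third array of every group and 4 with the mean of all probe sets of a gene, where the median was -0.29. Other cell types showed few calls, where 0.78% of all genes were called lower. None of 10 primitive streak, 13 mesoderm, 17 neural or 8 leukocyte genes passed. Of 11 trophoblast genes Tfap2c, a transcription factor also present in ESCs and germ cells, was lower (-1.10, FDR = 0.00401), and the mean level of the list was 4.81 to 4.90 in SCR and 4.94 to 5.11 in WT arrays. Of 14 fibroblast genes the surface glycoprotein Thy1 was lower (-1.62, FDR = 2.18e-08), at a list mean of 4.07 to 4.21 against 4.27 to 4.30. The difference of Tfap2c was -0.96 without SCR array 2 and -0.935 without WT array 1. Without the third array of every group Tfap2c did not pass (-1.14, FDR = 0.123).

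Of 15 genes of simple epithelia 3 were lower, all of them keratins, and none was higher (median -0.29). Over all genes 0.78% were called lower and 0.121% higher. Krt18 read 5.84, 5.30 and 5.62 in SCR arrays and 7.0, 7.41 and 7.18 in WT arrays (-1.61, SE 0.20, FDR = 2.11e-07), and its partner Krt8 read 7.0, 6.81 and 6.77 against 8.26, 8.34 and 8.14 (-1.39, SE 0.17, FDR = 1.62e-07). Both were clear of the WT arrays, while their KD arrays, at 6.64 to 8.20 and 7.47 to 8.82, spread across the WT levels. Krt19 was at -1.01 (SE 0.22, FDR = 0.00115), and at -0.90 without SCR array 1, -0.92 without SCR array 2 and -0.845 without WT array 2. Krt19 did not pass in a fit of the 6 arrays alone (FDR = 0.0616) or of the 9 day 0 arrays, KD included (FDR = 0.105). Between arrays of the same number it differed by -1.08, -1.5 and -0.44. The cell adhesion genes Cdh1 (-0.27) and Epcam (-0.06) did not pass. Krt8 and Krt18 are neighbours on chromosome 15, on which most genes were lower in SCR ESCs (described with the chromosomes). Without the genes of that chromosome 1 member of the list passed.

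The medians of the ATF4 and p53 lists lay below 0 while few of their members passed. Of 19 amino acid and ATF4 response genes 2 were lower, none was higher, 12 were lower with an FDR under 0.05 alone, where 0.78% of all genes were called lower and 9% by FDR alone, and the median was -0.33. Chac1, which degrades glutathione, read 4.85, 5.71 and 5.34 in SCR arrays and 5.79, 7.27 and 6.67 in WT arrays (-1.28, SE 0.23, FDR = 9.52e-05), and Nupr1, a stress-induced nuclear protein, was at -1.12 (FDR = 0.000338). The Chac1 arrays just missed each other, with 5.71 as the highest SCR and 5.79 as the lowest WT value. Trib3, a pseudokinase induced by ATF4, was at -0.997, just below the minimum, and Atf4 itself, a chromosome 15 gene, at -0.26. Of 17 p53 targets Perp, a desmosome protein, was lower (-1.03, SE 0.12, FDR = 3.54e-08), 8 were lower with an FDR under 0.05 alone, and the median was -0.33. These 8 included Btg2, an antiproliferative gene (-0.83), Pmaip1, which codes for the cell death protein Noxa (-0.89), and the cell cycle inhibitor Cdkn1a (-0.33). In KD ESCs, compared with the same WT arrays, the p53 list had a median of 0.19, with Perp at 0.74, and the ATF4 list one of -0.49. Of 12 unfolded protein response genes none passed, 4 had an unadjusted p under 0.05, and the median was -0.06. Without the third array of every group no member of the ATF4 and p53 lists passed. In a fit of the 6 arrays alone Chac1 (FDR = 0.158) and Nupr1 (FDR = 0.0777) did not pass. Chac1 was at -0.93 and Nupr1 at -0.94 without WT array 2, Nupr1 at -0.955 without SCR array 1, and Perp at -0.97 without SCR array 2 and -0.925 without WT array 1.

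Imprinted genes, which are expressed from 1 parental copy, had a list median of 0.06. Of 26 measured 3 were lower, where 0.78% of all genes were called lower. Plagl1, a zinc finger gene, read 2.69, 3.18 and 3.15 in SCR arrays and 5.09, 3.78 and 4.79 in WT arrays (-1.55, SE 0.26, FDR = 3.82e-05), with the SCR mean under the lower quartile. Its other probe set was at 0.04, and the mean of both, at -0.75, did not pass. In a fit of the 6 arrays alone Plagl1 did not pass (FDR = 0.0666). Between arrays of the same number it differed by -2.4, -0.6 and -1.64. Slc38a4, an amino acid transporter on chromosome 15, read 9.12, 9.19 and 9.14 against 10.53, 10.37 and 10.47 (-1.31, SE 0.11, FDR = 1.48e-11). KD arrays of Slc38a4 read 10.50, 10.38 and 10.47, the level of the WT arrays, so here the chromosome 15 gene was low only in SCR ESCs. Rian, a noncoding RNA of the Dlk1-Dio3 cluster, was at -1.20 (SE 0.20, FDR = 4.34e-05), from 1 of 3 probe sets, and at -0.69 as their mean. Its neighbour Meg3 was at -0.80 and the paternally expressed genes Dlk1 (0.26) and Peg3 (0.52) did not pass. Usp17la, a deubiquitinase gene of a family with near-identical copies and one of the genes of the 2-cell-like state, was at -1.98 (SE 0.36, FDR = 0.0001), as 1 of 5 measured genes of that state, and the probe set cannot be given to 1 copy with certainty.

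Genes that answer to a foreign RNA or to the plasmid were tested because SCR ESCs carry both. Of 19 interferon and double-stranded RNA response genes 1 passed, and it was lower, where 0.78% of all genes were called lower. Oas1a, an enzyme switched on by double-stranded RNA, read 5.87, 6.70 and 6.47 in SCR arrays and 8.0, 8.30 and 8.20 in WT arrays (-1.82, SE 0.19, FDR = 4.41e-09), and 6.57 to 6.80 in KD arrays. The list median was -0.06, and Ifit1 (0.15), Irf7 (0.07) and the RNA sensor Ifih1 (-0.18), all under the lower quartile in both lines, did not pass. Of 13 small RNA processing genes, of 10 genes that silence transgenes and retroelements and of 7 drug efflux transporters none passed in limma (5, 2 and 2 had an unadjusted p under 0.05), with medians of 0.03, 0.03 and 0.05. Within the small RNA list Drosha, the nuclease that starts microRNA processing, was at -0.62 (FDR = 5.72e-05), Tarbp2, the partner of Dicer, at -0.60 (FDR = 1.1e-07) and the Argonaute gene Ago1 at 0.46 (FDR = 0.000681), all short of 2-fold. Drosha and Tarbp2 lie on chromosome 15.

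Signalling genes showed single members only, where 0.78% of all genes were called lower and 0.121% higher. Of 12 LIF and STAT3 genes the feedback inhibitor Socs3 was lower, reading 8.09, 7.48 and 7.89 in SCR arrays and 9.57, 8.34 and 9.03 in WT arrays (-1.16, SE 0.21, FDR = 0.000108). Of 11 BMP pathway genes Id2, an inhibitor of basic helix-loop-helix factors, was higher, at 10, 8.86 and 9.40 against 9.14, 7.74 and 8.35 (1.01, SE 0.22, FDR = 0.00144). The Id2 arrays overlapped between the lines, but within each array number SCR was higher by 0.86, 1.12 and 1.05. Socs3 was at -0.99 without SCR array 2 and at -0.865 without WT array 1, and Id2 at 0.72 without SCR array 1, 0.675 without WT array 2, 0.98 without WT array 3 and 0.76 when its probe sets were averaged. In a fit of the 6 arrays alone neither Socs3 (FDR = 0.121) nor Id2 (FDR = 0.281) passed, and the same held without the third array of every group (FDR = 0.0591 for Socs3 and 0.192 for Id2). No member passed in the lists of FGF and ERK feedback (13 genes), Wnt (12), Nodal (9), YAP targets (7), cell cycle (22), glycolysis and hypoxia (21), cholesterol synthesis (18), DNA methylation (11) or Polycomb genes (13). In all, 26 of 41 lists had no member past the threshold. None of the 6 cardiac contractile genes plotted by the study passed, and 3 of them were under the lower quartile in both lines.

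**Figure D3:**
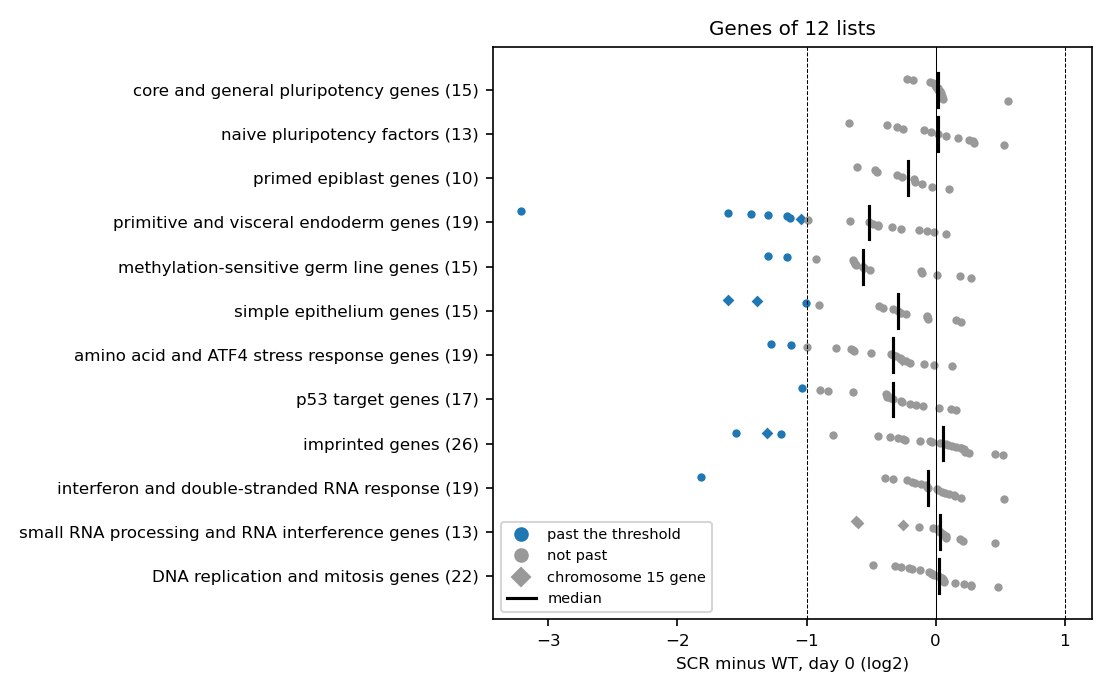
Difference of each measured gene of 12 lists (horizontal axis, SCR minus WT at day 0, log2; the number of genes in brackets), with genes past the threshold in blue, chromosome 15 genes as diamonds, list medians as black bars and dashed lines at the 2-fold minimum. All blue points of these lists lie on the lower side, whereas Id2 and Tgfbi, called higher in SCR ESCs, belong to lists not drawn. The medians of the endoderm (-0.52) and germ line (-0.56) lists lie farthest from 0.

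Read by chromosome in the same annotation, chromosome 15 stood apart. It was singled out after its values were seen, so they are given as a description with no test. Over its 548 genes the median SCR minus WT difference was -0.35, and 83.2% of the genes were below 0. Over the 13479 genes of the other chromosomes the median was -0.01 and 51.1% were below 0, and their medians ranged from -0.05 (chromosome 12) to 0.05 (chromosome X). With an FDR under 0.05, 276 chromosome 15 genes were lower (50.4%) and 3 were higher, against 7.37% lower on the other chromosomes. In the brighter 50% of genes the chromosome 15 median was -0.44 and in the dimmer 50% it was -0.17. In 5 groups of 109 or 110 neighbouring genes along the chromosome it was between -0.40 and -0.23. Of the 110 lower genes past the threshold 19 lay on chromosome 15 (3.47% of its genes) and 91 elsewhere (0.675% of the genes of the other chromosomes). Of the 17 higher genes 1, the epithelial factor Grhl2, lay on chromosome 15. Its arrays overlapped between the lines, and the call rested on 1 probe set of 3, whose mean was 0.33. On chromosome X 11 of 487 genes were lower (2.26%) and none was higher.

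Array by array, the same shift was read as the median level of chromosome 15 genes relative to the other chromosomes, with the mean of WT ESCs set to 0. At day 0 it was -0.35 to -0.31 in SCR arrays, -0.33 to -0.31 in KD arrays and -0.01 to 0.02 in WT arrays. The direct difference of the 2 transfected lines had a chromosome 15 median of 0.01. SCR arrays stayed between -0.31 and -0.24 on all later days. In WT EBs the level was -0.15 to -0.10 at day 2 and -0.23 to -0.22 at day 4, and by days 12 to 22 it had returned to between -0.06 and 0.01. The chromosome 15 median of the SCR minus WT difference was -0.18 on day 2, -0.01 on day 4, -0.34 on day 12, -0.38 on day 15 and -0.44 on day 22. Chromosome 12 reached a median of -0.33 at day 22. The number of chromosomes was not measured, and its part in these values was not tested.

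**Figure D4:**
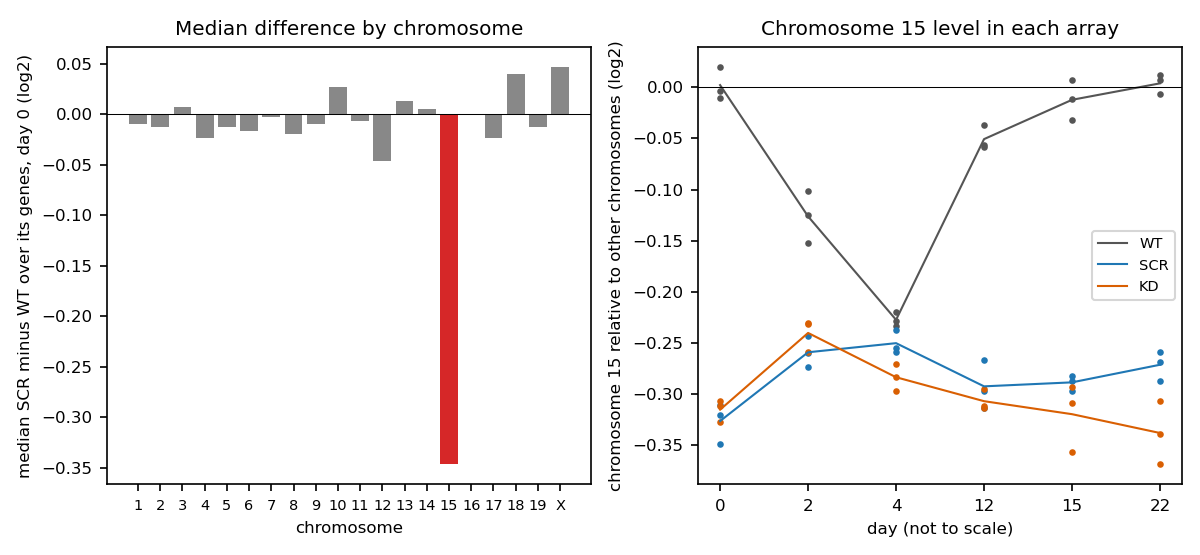
Left, median SCR minus WT difference at day 0 (log2) over the genes of each chromosome, with chromosome 15 (red) at -0.35 and all others between -0.05 and 0.05. Right, chromosome 15 level relative to the other chromosomes (log2) in each array by day, as points with a line through the means of 3 arrays. SCR and KD arrays lie low on all days, and WT arrays fall to about -0.23 at day 4 and return to about 0.

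Arrays of the later days are separate samples of the same lines, and show which day 0 differences were seen again. At day 2, 32 of the 110 lower genes were past the threshold and lower, 29.1% of them and 13% of the 246 genes lower that day, where 1.74% of all genes were called lower. Of the 17 higher genes 5 were called higher at day 2 (P2rx7, Aass, Tmem144, Scara5 and Grhl2), where 0.858% of all genes were. The median difference of the 110 genes was -0.65 at day 2, beside -0.01 over all genes. Of the 110, 101 were below 0 and 1 was called higher, where 0.858% of all genes were called higher. At day 4, 16 of the 110 were lower (5.27% of all genes were) and 15 were higher (5.44% of all genes were). The median of the 110 was -0.005. On the last 3 days 26 (day 12, 3.01% of all genes), 38 (day 15, 3.37%) and 30 (day 22, 2.54%) were lower. Higher on these days were 3, 1 and 4 of the 110, where 1.41%, 4.4% and 6.71% of all genes were. Of the 17 higher genes 5 were higher on day 4 (5.44% of all genes), 2 on day 12 (1.41%), 4 on day 15 (4.4%) and 2 on day 22 (6.71%). On day 4 Wls and Spink1 were lower (5.27% of all genes). Called lower on days 12, 15 and 22 were 2, 2 and 1 of the 17 (3.01%, 3.37% and 2.54% of all genes).

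Aass and Srgn were past the threshold in the same direction on all 5 later days. Aass was higher by 3.85, 4.77, 2.49, 1.15 and 1.75 in order of the days. Srgn was at -3.20, -2.11, -3.57, -3.56 and -1.35. Rhox5, Krt8, Gata6, Cubn, Nupr1 and Eppk1, a cytoskeletal linker of the plakin family, were lower on 4 of the 5 days. P2rx7 was as different at day 2 (2.36) as at day 0, then at 0.62 on day 4, and between -0.59 and 0.24 afterwards, none of these past the threshold. Spink1 changed sides, at 0.17 on day 2 and -6.52 on day 4, and Mael, lower at day 0, was at 3.02 on day 4. Of the 110 lower genes 45 were not called lower on any later day, and 7 of the 17 higher genes were not called higher again.

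**Figure D5:**
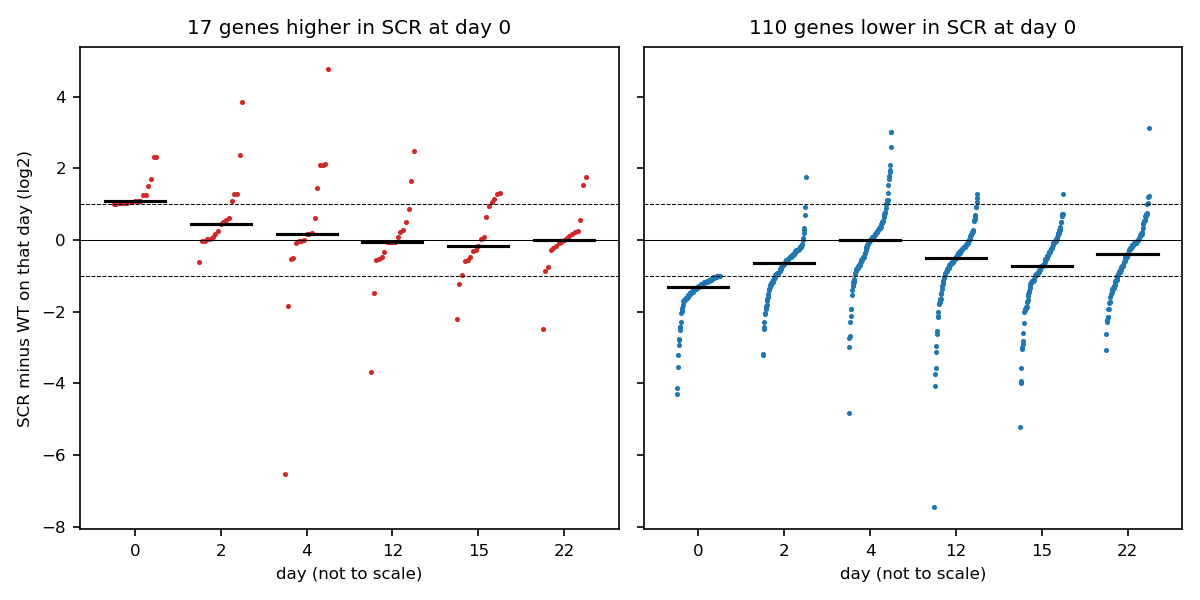
SCR minus WT difference (log2, vertical axis) on each day for the 17 genes higher (left) and the 110 genes lower (right) in SCR ESCs at day 0, one point per gene sorted by value within a day, with black bars at the medians and dashed lines at the 2-fold minimum. Day 0 chose the genes, and the medians of the lower genes are -0.65 at day 2, about 0 at day 4 and below 0 again from day 12 to 22.

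The change of the difference from day 0 to day 2 was tested for all genes and passed in 331 (2.35%), and in 1.84% of probe sets. It passed in 34 of the 110 lower genes, and in 33 of these the difference was smaller in size at day 2, with a value above 0 in 8 of them. The remaining gene, Timm8a2, named after its values were seen, went from -1.17 to 1.76. The day 0 arrays that chose these genes enter this test too, which by itself favours a smaller difference at day 2. Stra8 went from -2.42 to -0.40 (change 2.02, SE 0.29, FDR = 9.3e-06) and Calml4 from -3.54 to -1.94 (1.60, SE 0.30, FDR = 0.000437). Of the 2, Calml4 was past the threshold at day 2 and Stra8 was not. Wls went from 1.70 to -0.62 (-2.32, SE 0.27, FDR = 1.52e-07), and Aass grew from 2.30 to 3.85 (1.55, SE 0.33, FDR = 0.00167). Mageb16, at a difference of 0.12 at day 0, was 1.19 higher in SCR than in WT EBs at day 2 (change 1.07, SE 0.24, FDR = 0.00229).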

How the data were processed

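RNA was hybridised to Affymetrix mouse expression arrays after 3′ in vitro transcription. The deposited log2 values were made by the authors with RMA (background correction, quantile normalization, probe set summary). The submitters' processing notes name Expression Console and Partek 6.6, and the study's methods name R packages. Raw scans were not used here. Groups came from the sample titles. Group means of each line and day (18 groups, 54 arrays) were fitted with limma 3.58.1 (R 4.3.3) and eBayes, and p values were adjusted by Benjamini-Hochberg over 30939 probe sets. Errors are moderated standard errors. Each gene was represented by its brightest probe set, on average over the series, among those carrying its symbol and no other. Of the 30939 probe sets 25596 carry 1 symbol in the platform annotation, 685 several and 4658 none, and 79 symbols could not be matched to RefSeq. The fit was tested on simulated data with independent arrays, which cannot show how dependence between arrays would act on the p values. The number of arrays limits precision.

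Named genes were the 12 largest rises and 12 largest falls past the threshold with arrays apart, up to 4 called members of each list, and genes the study names. Grhl2, Gpr83, Eppk1, Timm8a2 and list members below the threshold were named after their values were seen. Gata6, Cubn and Dab2 passed but fell outside the 4 of their list. They were also named afterwards, and were not followed singly under the alternatives. Members, lists and comparisons were chosen with earlier results of these data known. The array numbers paired the day 0 samples: deviations from the group means correlated at 0.50, 0.42 and 0.24 for numbers 1, 2 and 3, and at most at 0.07 between numbers. What a number stands for is not given in the sources used here. In 41.9% (SCR) and 47.8% (WT) of probe sets array 3 lay between the others, and it did so most often in 17 of the 18 groups. If array 3 is not independent, the p values are too small. Alternatives varied normalization, brightness filter, variance model, arrays, block and the form of the threshold.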

Additional observations from a re-analysis of the deposited data

Results flagged for a closer look

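The difference between SCR and WT cells changed from day 0 to day 2 by at least 2-fold with an FDR under 0.05 in 569 probe sets (1.84% of those tested), by a test of the change itself. Among the genes named by rule 15 passed it, as did 8 of those named after their values were seen. The day 0 arrays chose most of these genes and enter the test, so smaller differences at day 2 are favoured by the choice.

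Among genes higher at day 0, Aass changed by 1.55 (from 2.30 to 3.85), Wls by -2.32 (1.70 to -0.62), Mgst1 by -1.11 (1.07 to -0.04) and Susd2 by -1.05 (1.03 to -0.03). Among genes lower at day 0, Rhox5 changed by 1.11 (-4.30 to -3.19), Gm21283 by 1.69 (-4.11 to -2.42), Calml4 by 1.60 (-3.54 to -1.94) and Tspan8 by 2.12 (-2.79 to -0.68). Pnma5 changed by 1.58 (-2.75 to -1.17), Mt4 by 1.70 (-2.52 to -0.81), Crxos by 1.37 (-2.42 to -1.05) and Stra8 by 2.02 (-2.42 to -0.40). Krt18 changed by 1.08 (-1.61 to -0.53) and Oas1a by 1.12 (-1.82 to -0.70). Mageb16, chosen because the study names it and not for its day 0 values, changed by 1.07 (0.12 to 1.19). Of the genes named after their values were seen, Peg3 changed by -1.16 (0.52 to -0.64), Fermt3 by 1.21 (-1.98 to -0.76), Aurkc by 1.12 (-1.66 to -0.54) and Tsx by 1.85 (-1.65 to 0.19). Dpp4 changed by 1.73 (-1.45 to 0.28), Gsn by 1.24 (-1.48 to -0.24), Plac8 by 1.97 (-1.06 to 0.91) and Timm8a2 by 2.93 (-1.17 to 1.76).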

How the results depend on the processing

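Of 237 counts recomputed under 20 alternatives, 220 stayed within 1.5 times the value reported. Part of these could hardly move. The later days use no day 0 array, so their counts stayed nearly the same when a day 0 array was left out. The form of the threshold moved them most. When the test itself was against a 2-fold change, 24 probe sets passed (4 higher, 20 lower) and 17 genes (2 higher, 15 lower), and with no minimum fold 3211 probe sets (1158 higher, 2053 lower) and 1865 genes (596 higher, 1269 lower). With the mean of all probe sets of a gene 11 genes were higher. Among the brightest 60% of probe sets 541 passed at day 12, 1014 at day 15 and 1147 at day 22, where 1078, 1967 and 2453 did among all. Without the third array of every group, chosen after seeing the data, 14 list genes passed in place of 25, and 33 of the 44 named genes. Without chromosome 15, also chosen afterwards, 107 of 127 genes remained by construction.

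With each day 0 array left out in turn, 197 to 227 probe sets passed, 31 to 48 of them higher and 155 to 188 lower. For genes the range was 121 to 146, with 15 to 22 higher and 106 to 126 lower, for named genes 37 to 43 and for list genes 21 to 25. The genes lower at both day 0 and day 2 numbered 27 to 38, and the probe sets whose difference changed by day 2 numbered 533 to 684. With the replicate block, by number over all arrays or within each day, 194 probe sets and 127 genes passed. The design is balanced, so the block left every difference as it was and altered only the errors, and the minimum fold decided these counts. With no minimum fold the block over all arrays gave 3333 probe sets and the block within each day 4063, in place of 3211. It changed no call among the named genes. Of the 44 named genes past the threshold none reversed under any alternative, and 24 were past the threshold in all that measured them. Named genes that did not pass were not checked for a reversal. Most losses came from fits on fewer arrays (36 of 44 passed on the 6 arrays alone) or from averaging the probe sets of a gene (36 of 44), and with array weights Krt19 was at -0.62 and Mgst1 at 0.71. All 44 had an FDR under 0.05 with each array left out, which is favoured by their choice on the same arrays. The chromosome 15 median was -0.43 to -0.32 over 17 alternatives.

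With 3 arrays a group differences near 2-fold are decided by single arrays, and signals under the lower quartile give no exact size.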

Other observations

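Several genes with large falls belong to no gene list of the report. They were chosen after their values were seen and are given as values only. Fermt3, an integrin activator of blood cells, was at -1.98 in SCR minus WT ESCs, Bhmt, which methylates homocysteine, at -1.70, Aurkc, an Aurora kinase of meiosis, at -1.66 and Tsx, an X-linked testis gene, at -1.65. Dpp4, a membrane peptidase, was at -1.45, and Gsn, which codes for the actin-severing protein gelsolin, at -1.48. Lgals1, a galectin, had a mean level of 9.89 in SCR, 11.06 in WT and 9.96 in KD ESCs. Plac8 was at 4.63 in SCR, 5.68 in WT and 7.96 in KD ESCs and Cyyr1 at 4.12, 5.47 and 6.22. For Plac8 and Cyyr1, as for P2rx7, the means of the SCR and KD lines lay on opposite sides of WT.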
